A study of Caenorhabditis elegans with 12 samples.

Results

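Caenorhabditis elegans makes its unsaturated fatty acids with the fatty acid desaturases encoded by fat-1 to fat-7, and the expression of these 7 genes is described here across wild type and dlk-1 mutant animals with and without a statin. The genes were taken by symbol, with fat-6 by its sequence name VZK822L.1, and the transcript row with the highest mean was used where a gene had several. All 7 were found among the 30301 genes of the deposited table, and all 7 were among the 15529 genes tested. RNA of whole animals was sequenced in 4 groups of 3 libraries. The groups were wild type at 0 mM fluvastatin, wild type at 1 mM, the dlk-1 mutant at 0 mM and the dlk-1 mutant at 1 mM, each for 9 h from the fourth larval stage on plates with OP-50 bacteria. Each library held pooled animals, since the protocols give about 200 worms on each of 4 plates for a condition. Fluvastatin is a statin, an inhibitor of HMG-CoA reductase in the mevalonate pathway. dlk-1 encodes a MAP kinase kinase kinase that acts upstream of a p38 kinase and is known for its role in axon regeneration and synapse formation. The sample titles call the mutant a p38 knockout, the genotype labels call it dlk-1 mutant, and no allele is stated in the labels.

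A desaturase puts a double bond at a set place in a fatty acid chain, and the worm enzymes act one after the other. The delta-9 desaturases come first: FAT-5 acts mainly on palmitic acid and yields palmitoleic acid, while FAT-6 and FAT-7 act mainly on stearic acid and yield oleic acid. FAT-2 is the delta-12 desaturase that turns oleic into linoleic acid, and FAT-1 is the omega-3 desaturase, an activity that mammals lack. FAT-3, the delta-6 desaturase, and FAT-4, the delta-5 desaturase, act with elongases to make arachidonic and eicosapentaenoic acid. The intestine is a main site of this synthesis, and the delta-9 genes are known targets of the nuclear receptors NHR-49 and NHR-80, the sterol-regulated factor SBP-1 and the Mediator subunit MDT-15.

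In the WBcel235 annotation, 5 of the genes lie on chromosome IV and 2 on chromosome V. These positions were matched by sequence name, because the build behind the deposited values is not stated. fat-1 (Y67H2A.8, IV:13315644-13318811, 3 exons) and fat-2 (W02A2.1, IV:13323873-13326395, 3 exons) lie on the plus strand with 5061 bases between them. fat-4 (T13F2.1, IV:9799429-9802226, 8 exons) ends 796 bases before fat-3 (W08D2.4, IV:9803023-9806119, 7 exons) on the same strand. fat-6 (VZK822L.1, IV:11913692-11915687) and fat-7 (F10D2.9, V:7151353-7153146) lie on the minus strand with 5 exons each. fat-5 (W06D12.3, V:17725004-17726818, 3 exons) lies on the plus strand. It is the only one of the 7 whose annotated span overlaps other genes. These are the potassium channel gene twk-42, which shares 28 bases with the end of fat-5 on the opposite strand, and the noncoding W06D12.8, which was listed at 0 in all 12 libraries.

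The libraries held 9370975 to 12438131 reads with 1 transcript row per gene. dlk-1 itself stood at 791 to 961 normalised reads in wild type and 481 to 541 in the mutant at 0 mM, while at 1 mM the ranges were 983 to 1419 for wild type and 706 to 804 for the mutant, so it was lower but not absent. Libraries of the same replicate number resembled each other across groups, and replicate 2 stood apart, with 8 sperm genes summing to a mean of 1097 normalised reads in its 4 libraries against 3251 and 3544 in replicates 1 and 3. Results are therefore also given with replicate number as a blocking term (called the block) wherever that changes a call. The deposited value, called normalised reads here, is a read count divided by 1 factor per library. Nothing in the labels says that the replicates came from separate cultures. The p-values then reflect only how these libraries vary, and that variation may be technical.

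Levels between the genes can be compared only per length of transcript. In wild type at 0 mM, fat-6 had the highest level with the row and length used, 4451 ± 531 normalised reads per kb of transcript (SD, n = 3). fat-2 followed at 3699 ± 279 per kb, fat-4 at 3514 ± 183 and fat-1 at 3037 ± 203. fat-7 stood at 843 ± 250 per kb, fat-3 at 742 ± 73.3 and fat-5 at 307 ± 54.8. The ranges of fat-6 and fat-2 over these libraries overlapped, as did those of fat-2 and fat-4 and those of fat-7 and fat-3. Read within a library, fat-6 was above fat-2 in all 12 libraries of the study, and fat-2 was above fat-4 in 11 of the 12. fat-7 was above fat-3 in 2 of the 3 wild-type libraries at 0 mM and in 5 of the 12, so this pair had no fixed order. fat-5 was the lowest of the 7 in every group, also when coding length was used. The first 4 places kept the same order in the other 3 groups. For fat-6 the row VZK822L.1b was divided by the 1166 bases of another model, VZK822L.1a. The row VZK822L.1a itself stood at 71.4 to 73.8% of the row used. The place of fat-6 above fat-2 and fat-4 therefore depends on this choice and is uncertain. fat-7 stayed next to fat-3 in the mutant at 0 mM, with 806 ± 211 and 787 ± 102 per kb. At 1 mM fat-3 was above fat-7, with 778 ± 76 per kb against 576 ± 146 in wild type, and 830 ± 89.2 against 402 ± 100.2 in mutant animals. fat-5 stood at 499 ± 110 per kb in wild type and 294 ± 75.4 in the mutant at 1 mM, and its libraries overlapped those of fat-7 there in both genotypes.

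**Figure D1:**
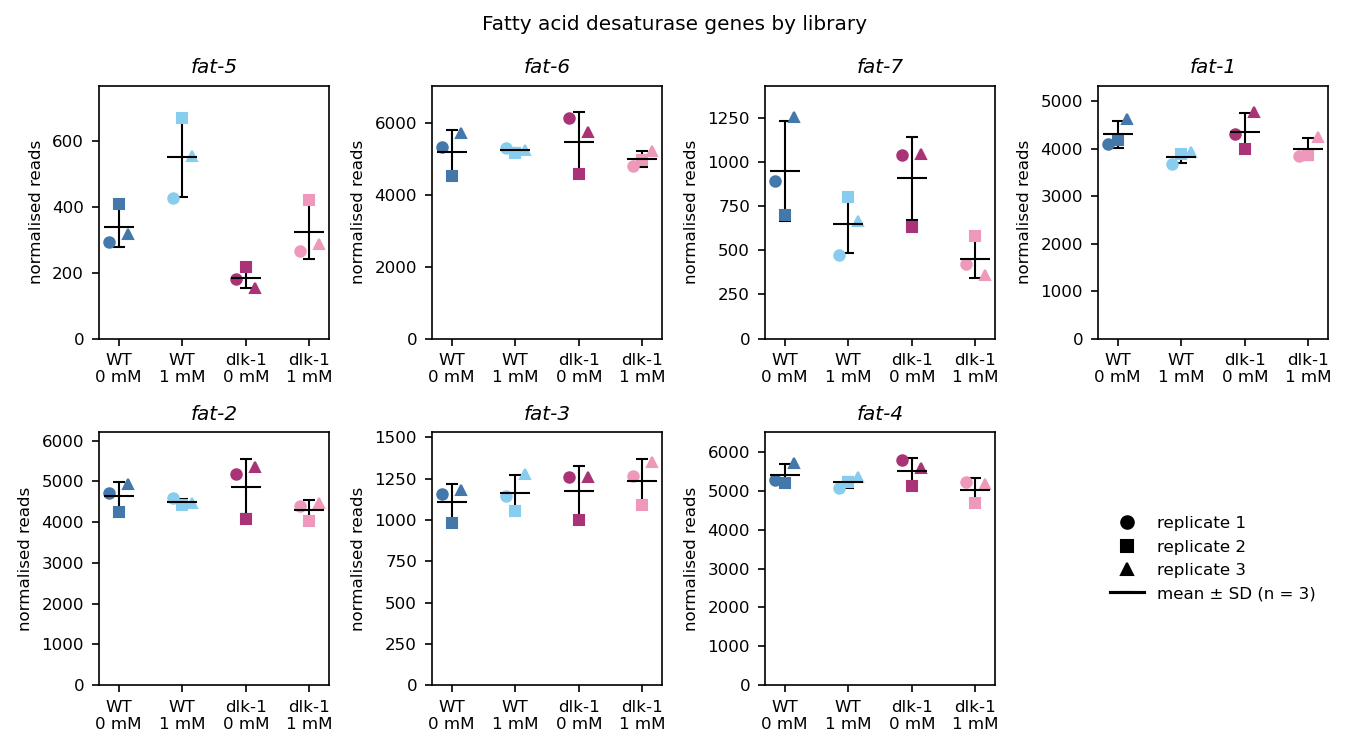
Normalised reads of the 7 desaturase genes (vertical axes, each from 0) in the 4 groups, with 1 point per library, the symbol giving the replicate number and the lines the mean ± SD (n = 3). fat-5 is lower in both mutant groups than in wild type at the same dose and higher at 1 mM than at 0 mM, fat-7 is lower at 1 mM with much spread, and the other 5 genes stay close to one level.

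fat-5, the palmitate desaturase gene, was lower in the dlk-1 mutant than in wild type at both doses, at 54.1% and 59.0% of the wild-type mean. At 0 mM, the wild-type libraries had 293, 408 and 317 normalised reads for replicates 1, 2 and 3, and the mutant libraries had 180, 216 and 155. At 1 mM the wild-type libraries had 427, 669 and 555, and the mutant libraries had 267, 420 and 287. Every mutant library was below every wild-type library of the same dose. Of all genes tested, 1.79% were lower in the mutant without overlap at 0 mM and 3% at 1 mM. The same-number ratios of mutant to wild type were 0.614, 0.530 and 0.488 at 0 mM and 0.625, 0.628 and 0.517 at 1 mM. fat-5 was thus lower in the mutant in 6 of 6 same-number pairs, as were 4.35% of all genes tested.

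On the log2(value + 1) scale, the genotype effect on fat-5 was -0.88 ± 0.23 (SE, n = 3 per group) at 0 mM, -0.76 ± 0.23 at 1 mM and -0.82 ± 0.16 averaged over both doses, with a 95% interval of -1.18 to -0.47 for the average. None of these passed in the limma fit over all genes (adjusted p = 1.0, 1.0 and 0.557), where no gene at all was called for a genotype effect (0%). The unadjusted p for the average was 0.000397, the 10th lowest of 15529, and 363 genes (2.34%) had one below 0.05. With the replicate number as a block, the same differences passed, with limma adjusted p = 0.00526 at 0 mM, 0.0150 at 1 mM and 0.00026 for the average. The block fit called 0.0966%, 0.27% and 1.04% of genes in these comparisons. There fat-5 had the lowest p of all genes at 0 mM and for the average. The genes described were chosen with earlier results of these data known, so the ranks of fat-5 are no separate support. edgeR's quasi-likelihood test on the recovered reads gave the average an adjusted p of 0.574 without the block and 0.000374 with it, and DESeq2 gave 0.00593. With the block edgeR called 0.947% of genes for the averaged effect, and DESeq2, which was fitted without the block, called 0.18%. At the single doses DESeq2 did not call fat-5 (adjusted p = 0.894 at 0 mM and 0.776 at 1 mM), and edgeR called it with the block (0.00692 and 0.0224).

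With the block, 15 of 15 fits that each left out a library or a replicate number still called the averaged effect on fat-5. Its log2 differences there were -0.89 to -0.74. Without the block, 0 of 15 such fits called it, at -0.92 to -0.74 (lowest limma adjusted p = 0.429). With the block, the effect at 0 mM kept its call in 12 of the 15. It was lost without wild type at 0 mM replicate 2 (adjusted p = 0.0542), without all of replicate 2 (0.198) and without all of replicate 3 (0.104). The effect at 1 mM kept its call in 8 of the 15. It was lost without wild type at 1 mM replicate 2 (adjusted p = 0.0702) or 3 (0.0826), without the mutant at 1 mM replicate 1 (0.0673), 2 (0.0526) or 3 (0.0905), and without all of replicate 2 (0.169) or replicate 3 (0.186). Over those losses, the log2 difference of fat-5 lay between -0.90 and -0.67.

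fat-5 was also higher with fluvastatin in both genotypes, in 6 of 6 same-number pairs, as were 9.77% of all genes. The same-number ratios of 1 mM to 0 mM were 1.46, 1.64 and 1.75 for wild type, with 1.48, 1.94 and 1.86 for the mutant, and the groups did not overlap in either genotype. Without overlap, 4.6% of all genes were higher with fluvastatin in wild type and 3.87% in the mutant. The log2 differences were 0.69 ± 0.23 in wild type and 0.80 ± 0.23 in the mutant, which limma called with the block (adjusted p = 0.000433 and 0.000134) and not without it (0.332 and 0.219). In these 2 comparisons limma called 7.03% and 6.31% of genes with the block and 1.82% and 1.38% without it. edgeR called fat-5 in both with the block (adjusted p = 0.000408 and 0.000294) and in neither without it (0.359 and 0.225). DESeq2, fitted without the block, called it in neither (0.146 and 0.0531). With the block edgeR called 6.88% and 6.1% of all genes, and DESeq2 called 2.81% and 2.33%. In limma with the block, all 15 leave-outs kept both calls. Without it, 0 of 15 called either, with adjusted p of at least 0.156 in wild type and 0.137 in the mutant.

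The effect of the drug on fat-5 differed between the genotypes by a log2 of only 0.12 ± 0.32. The 95% interval was -0.59 to 0.83 without the block and -0.19 to 0.42 with it. That did not pass (limma adjusted p = 1.0 with and without the block), and both intervals are too wide to say that the effects were equal. The mutant at 1 mM, at 325 ± 83.3 normalised reads (SD, n = 3), lay close to wild type at 0 mM, at 339 ± 60.5. Wild type at 1 mM stood at 551 ± 121 and the mutant at 0 mM at 184 ± 30.9. Being lower in the mutant and higher with the drug in all 6 pairs of each kind was seen in 104 of the 15529 genes, or 0.67%.

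**Figure D2:**
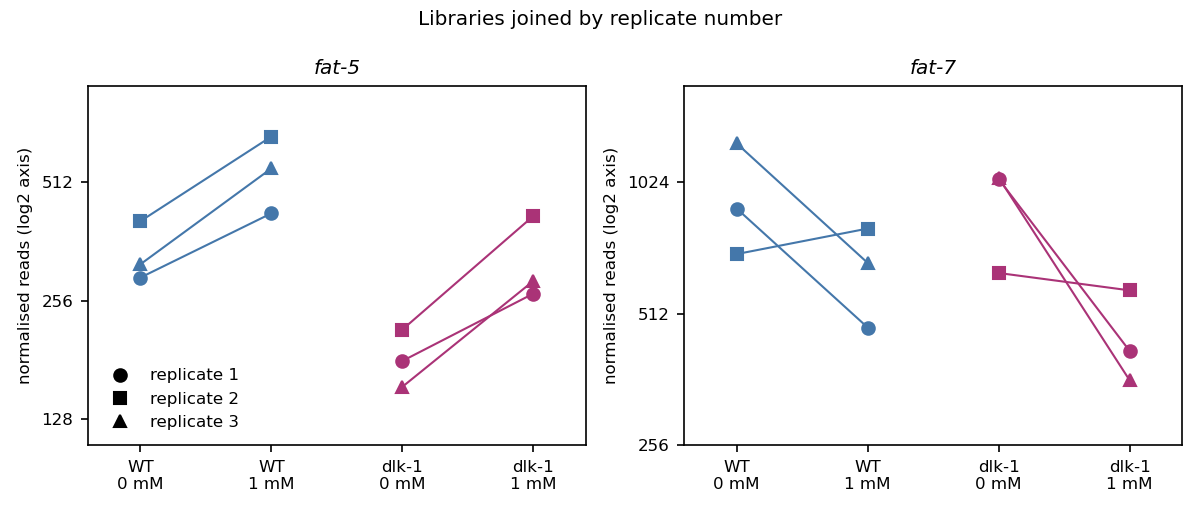
Normalised reads of fat-5 and fat-7 on a log2 axis, with libraries of the same replicate number joined between 0 and 1 mM fluvastatin within each genotype. All 6 lines of fat-5 rise and run nearly side by side, with replicate 2 on top in every group. For fat-7, the lines of replicates 1 and 3 fall and those of replicate 2 run nearly flat.

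The values of fat-5 rest on 133 to 643 reads per library, for which counting error is at most 8.67% in a single library. Replicate 2 had the highest fat-5 value in all 4 groups, and a fit without a block carries that spread in its error. Its overlapping neighbour twk-42 had normalised reads of 73.6 to 129 in the 12 libraries and was called in no comparison, with or without the block. Reads of the opposite strand cannot be parted here, because the library kit does not mark strand, and 28 bases are shared. Of the 10 tested genes around fat-5, 5 on each side, none was called for a genotype effect with the block. Their averaged genotype effects lay between -0.37 and 0.17. For the drug in wild type, 1 of them, ddo-1, was called higher with the block, as were 3.77% of all genes. Its log2 difference was 0.52 (limma adjusted p = 0.0468), and none of the 10 was called for the drug in the mutant. In whole-animal RNA, fewer cells that express fat-5 and less fat-5 RNA per cell cannot be told apart.

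fat-7, one of the 2 stearate desaturase genes, stood lower with fluvastatin in 5 of 6 same-number pairs, and the size depended on replicate 2. The count does not set it apart, since fat-2 and fat-4 were also lower in 5 of 6 and fat-1 in 6 of 6. All 6 pairs were lower for 9.7% of all genes tested. In wild type the normalised reads of fat-7 were 891, 701 and 1256 at 0 mM and 476, 802 and 669 at 1 mM. In the mutant they were 1041, 634 and 1049 at 0 mM and 421, 579 and 360 at 1 mM. The mutant groups did not overlap, while the wild-type groups did. Without overlap, 4.06% of all genes were lower with fluvastatin in the mutant. Replicate 2 was the lowest library in both groups without the drug and the highest in both groups with it. Its ratio of 1 mM to 0 mM was 1.14 in wild type and 0.912 in the mutant, while replicates 1 and 3 had 0.534 and 0.533 in wild type, and 0.404 and 0.343 in mutant animals.

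The log2 difference of fat-7 with fluvastatin was -0.54 ± 0.29 (SE, n = 3 per group) in wild type and -0.99 ± 0.29 in the mutant. limma called neither, with adjusted p = 1.0 and 0.252 without the block and 0.502 and 0.208 with it. In the mutant, edgeR with the block (adjusted p = 0.0413) and DESeq2 without it (0.0488) placed the difference just past the threshold of 0.05, where they called 6.1% and 2.33% of all genes. Without replicate 2, limma gave fat-7 a log2 difference of -1.42 in the mutant, which passed (adjusted p = 0.0228), and -0.91 in wild type, which did not (0.135). Other leave-outs made the difference of fat-7 smaller, though not every one did. It was -0.36 in wild type and -0.84 in the mutant without replicate 1, and -0.35 and -0.72 without replicate 3. Without wild type at 0 mM replicate 3 the wild-type difference was -0.32, and without wild type at 1 mM replicate 1 it was -0.33. The drug effect differed between genotypes by -0.45 ± 0.41, with an interval of -1.36 to 0.46 (limma adjusted p = 1.0). The genotype effect on fat-7 was -0.06 ± 0.29 at 0 mM and -0.51 ± 0.29 at 1 mM, and neither passed with or without the block.

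A gene of no symbol 1356 bases from fat-7, F10D2.10 (V:7154503-7156179, minus strand), stood at 86.6 to 96.4% of the fat-7 value in every library. Its group means were 852, 589, 817 and 426 normalised reads, in the order wild type at 0 and 1 mM and the mutant at 0 and 1 mM, beside 949 ± 282, 649 ± 164, 908 ± 237 and 453 ± 113 for fat-7 (SD, n = 3). Whether the pair shares reads was not tested, so the values of fat-7 are uncertain to that extent. Among the 10 tested genes around fat-7, 5 on each side, are UDP-glucuronosyltransferase genes, a family that attaches sugars to foreign compounds. 4 of them, ugt-36, ugt-37, ugt-40 and ugt-41, were called higher with fluvastatin in both genotypes with the block, at log2 differences of 1.44 to 3.71. With the block, 3.77% of all genes were called higher with the drug in wild type and 3.22% in the mutant. None of these 10 was called lower.

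fat-6, the other stearate desaturase gene and the highest of the 7 per kb with the row and length used, was called in no comparison by any of the 3 tools. Its normalised reads in wild type were 5335, 4511 and 5725 at 0 mM and 5305, 5165 and 5244 at 1 mM. In the mutant they were 6130, 4561 and 5740 at 0 mM and 4789, 4968 and 5224 at 1 mM. All groups compared overlapped. The log2 difference with fluvastatin was 0.02 ± 0.12 (SE, n = 3 per group) in wild type, with an interval of -0.25 to 0.29, and -0.12 ± 0.12 in the mutant, with an interval of -0.39 to 0.14. Neither passed in limma (adjusted p = 1.0), and the transcript rows VZK822L.1a and VZK822L.1c stood at 71.4 to 73.8% and 99.0 to 99.2% of the row used, in every library.

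Most of the summed level of the 3 delta-9 genes per kb was that of fat-6 in every library. The sum was 5601 ± 726 normalised reads per kb in wild type at 0 mM and 5567 ± 196 at 1 mM, and 5670 ± 883 and 4979 ± 228 in the mutant (SD, n = 3). fat-6 held 79.5% of it at 0 mM and 80.8% at 1 mM in wild type, and 82.9% and 86.1% in mutant animals. The share of fat-5 was 5.62 ± 1.72% in wild type at 0 mM and 8.92 ± 1.67% at 1 mM, and 3.03 ± 1.01% and 5.88 ± 1.30% in the mutant. The mean share of fat-7 was 14.8% at 0 mM and 10.3% at 1 mM in wild type, where replicate 2 stood at 12.8% and 12.4%. In mutant animals it was 14.1% and 8.07%. These shares are a description of RNA levels per length, and no test was made on them. They rest on the same row and length of fat-6 as the levels per kb.

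**Figure D3:**
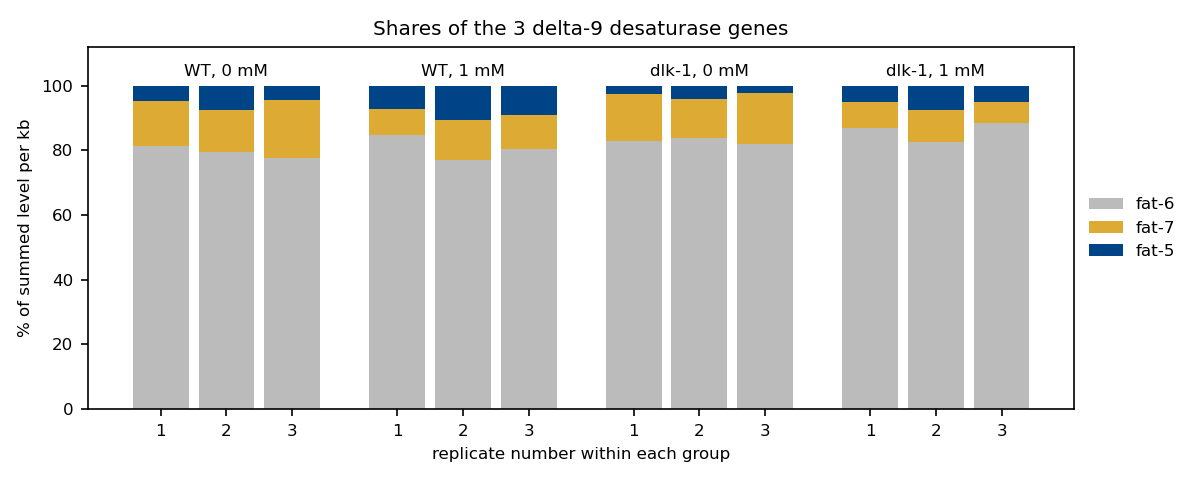
Share of fat-6, fat-7 and fat-5 in the summed level per kb of the 3 delta-9 desaturase genes (vertical axis, percent), with 1 bar per library. fat-6 takes 77.1 to 88.5% in every library, fat-5 takes 2.34 to 10.5% and has its smallest shares in the mutant without fluvastatin, and fat-7 takes 6.32 to 17.7%.

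The genes of the later steps, which make polyunsaturated fatty acids, stayed near one level. fat-2, which feeds linoleic acid into the pathway, had means of 4642 ± 351 and 4492 ± 86.5 normalised reads in wild type at 0 and 1 mM, beside 4875 ± 686 and 4297 ± 239 for the mutant (SD, n = 3). fat-4, the delta-5 desaturase gene, had wild-type means of 5411 ± 282 at 0 mM and 5223 ± 147 at 1 mM, against 5515 ± 347 and 5042 ± 296 for the mutant. For both genes the groups overlapped in every comparison. Reads of the 2 transcript rows of fat-4 moved together, with T13F2.1b at 90.5 to 91.5% of the row used.

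fat-1, the omega-3 desaturase gene, was lower with fluvastatin in 6 of 6 same-number pairs, though by little; 9.7% of all genes did the same. Its normalised reads in wild type were 4090, 4182 and 4628 at 0 mM and 3677, 3884 and 3934 at 1 mM, and in the mutant 4303, 3980 and 4778 at 0 mM and 3845, 3863 and 4253 at 1 mM. The wild-type groups did not overlap, as for 4.37% of genes in that direction. Its log2 difference was -0.16 ± 0.09 (SE, n = 3 per group) in wild type and -0.12 ± 0.09 in the mutant. Neither passed in limma, and with the block the wild-type difference had an adjusted p of 0.0673, and of 0.0586 in edgeR.

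fat-3, the delta-6 desaturase gene, was the only one of the 7 higher in the mutant in 6 of 6 same-number pairs, as were 4.05% of all genes. Its means were 1107 ± 109 and 1161 ± 113 normalised reads in wild type at 0 and 1 mM, beside 1174 ± 152 and 1239 ± 133 for the mutant (SD, n = 3). The averaged genotype effect was 0.09 ± 0.09 on the log2 scale, which did not pass with the block (limma adjusted p = 0.372).

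Across fat-1, fat-2, fat-3, fat-4 and fat-6, the log2 difference with fluvastatin lay between -0.16 and 0.07 in wild type and between -0.17 and 0.08 in the mutant. The averaged genotype effect lay between -0.01 and 0.09. The 95% intervals of these 5 genes reached from -0.36 to 0.36 and from -0.41 to 0.37 for the drug and from -0.19 to 0.29 for the genotype, so larger changes than these lie outside the intervals. None of the 5 had an unadjusted p below 0.05 in limma without the block, and none was called by limma, edgeR or DESeq2, with or without the block. With the block, 4 of the 5 had an unadjusted p below 0.05 in limma. These were fat-1 for the drug in either genotype, fat-2 and fat-4 for the drug in the mutant, and fat-3 for the averaged genotype effect, with limma adjusted p = 0.0673, 0.199, 0.123, 0.182 and 0.372 in that order. Such a p was held by 17.8% and 17.1% of all genes for the drug, wild type first, and by 12.7% for the averaged genotype effect.

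**Figure D4:**
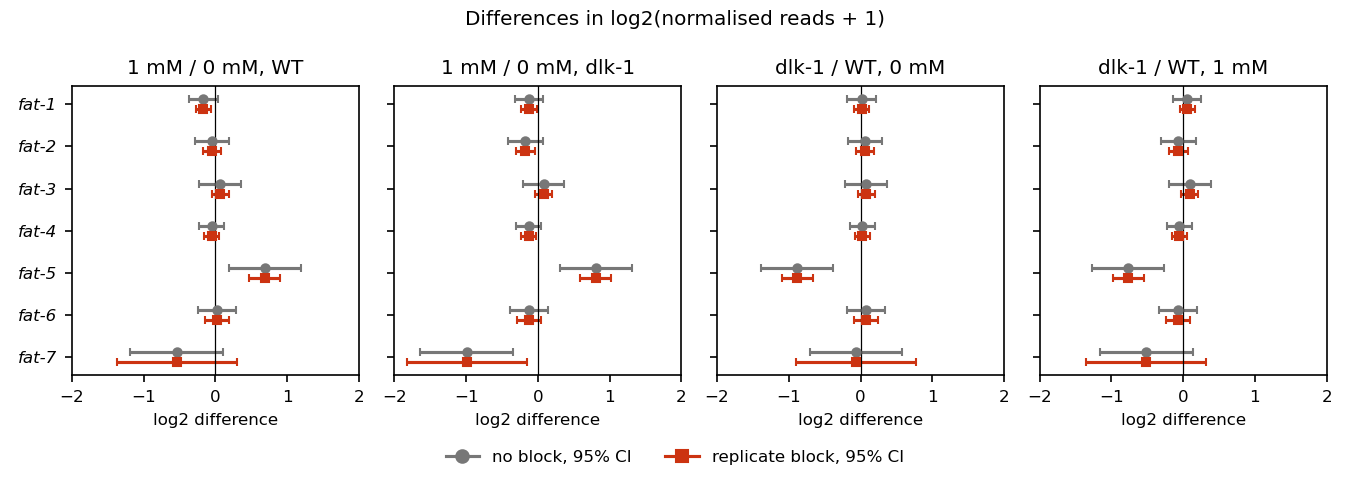
Log2 differences of the 7 genes (horizontal axes) for the drug in each genotype and for the genotype at each dose, with 95% intervals from limma without (grey circles) and with (red squares) the replicate number as a block. fat-5 stands clear of 0 in all 4 panels, to the right for the drug and to the left for the mutant, and the block narrows its intervals and widens those of fat-7.

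Counted over the 7 genes, limma without the block called none in any of 6 comparisons. Of all genes, that fit called 1.82% and 1.38% for the drug, wild type first, and 0% for each genotype effect. 1 gene, fat-5, had an unadjusted p below 0.05 for the drug in wild type, as did 5.83% of all genes tested, and for each genotype effect, as did 0.805% at 0 mM and 1.46% at 1 mM. fat-5 and fat-7 had one for the drug in the mutant, beside 5.69% of all genes. With the block, limma called fat-5 for the drug in each genotype and for the genotype at 0 mM, at 1 mM and on average. No gene of the whole table was called for a difference of drug effects between genotypes (0%), by limma, edgeR or DESeq2, and 29 genes (0.187%), none of them one of the 7, had an unadjusted p below 0.05 there in limma. The median log2 difference of the 7 genes was -0.04 for the drug in wild type and -0.12 in the mutant, beside medians of 0.01 over all genes in both. For the averaged genotype effect the medians were about 0.00 for the 7 genes and 0.01 for all genes.

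The 7 genes also differed in how far their profiles over the 12 libraries lay from each other. As a measure of likeness, each gene's log2(value + 1) was centred on its own mean, and the root mean square difference between 2 genes was taken. fat-2 and fat-6 were the closest pair, at 0.06, followed by fat-2 and fat-4 at 0.07. fat-5 and fat-7 were the farthest apart, at 0.89. Among 11147 genes with a mean of at least 50, the profiles nearest to fat-5 were Y73B6BL.31 at 0.32, C13G3.1 at 0.33 and Y56A3A.33 at 0.34, where the spread of fat-5 about its own mean was 0.61. The averages behind these show that none of the 3 had so large a genotype difference as fat-5: at 0 mM their log2 differences were -0.38, -0.42 and -0.28.

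The profile nearest to fat-7 was that of its neighbour F10D2.10, at 0.05 beside a spread of 0.53 for fat-7 itself, and then F21F8.4 at 0.20 and the cathepsin B-like protease gene cpr-1 at 0.21. The genes of little change lay near many others, so the names say less there. They were ech-6, mel-32 and ard-1 for fat-1, T08H10.1, ech-5 and Y76A2B.5 for fat-2, pmt-1, K06G5.1 and T10B5.7 for fat-3, tag-173, Y92H12BR.8 and C34C12.5 for fat-4, and Y76A2B.5, F07H5.5 and T08H10.1 for fat-6. Their distances were 0.04 to 0.07.

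Genes that work with the desaturases were read as lists. Over all genes, limma without the block called 1.39% higher and 0.425% lower with fluvastatin in wild type. The mutant shares were 1.13% and 0.251%. With the block 3.25% were called lower in wild type and 3.09% in the mutant. Of 17 tested genes of fatty acid synthesis and elongation, limma without the block called none in wild type and 1 lower in the mutant. With the block it called 2 and 4 lower and none higher. The median log2 difference of the 17 was -0.07 in wild type and -0.12 in the mutant, against 0.01 over all genes in both. The gene called without the block was elo-6, an elongase gene of the monomethyl branched-chain fatty acids, with means of 3083 ± 262 and 2555 ± 82.6 normalised reads in wild type at 0 and 1 mM, beside 2750 ± 158 and 1948 ± 34.4 for the mutant (SD, n = 3). elo-6 fell in the mutant by a log2 of 0.50 ± 0.08 (SE, limma adjusted p = 0.0111), a call kept in 9 of 15 leave-outs. Lost calls of elo-6 had adjusted p from 0.0556 to 0.401. In wild type its log2 difference was -0.27 ± 0.08, called with the block (adjusted p = 0.0116) and not without it (0.24). For the averaged genotype effect, elo-6 was the one gene of the 17 called with the block, at -0.28 ± 0.06 (adjusted p = 0.00848, and 0.59 without it).

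Desaturases take electrons from cytochrome b5 and its reductases. Of 4 such genes, the cytochrome b5 gene cytb-5.1 (C31E10.7) rose with fluvastatin in both genotypes, and no other was called in limma with or without the block. Its means were 858 ± 69.7 and 1683 ± 219 normalised reads in wild type at 0 and 1 mM, beside 853 ± 75.3 and 1470 ± 232 for the mutant (SD, n = 3). The log2 difference was 0.97 ± 0.14 (SE, limma adjusted p = 0.0038) in wild type and 0.78 ± 0.14 (0.0199) in the mutant. The calls of cytb-5.1 were kept in 13 and 8 of 15 leave-outs, with adjusted p up to 0.315 and 0.660 where they were lost, and the block fit called both. Its averaged genotype effect was -0.10 ± 0.10, which did not pass.

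Of 12 genes for regulators of the desaturases, among them nhr-49, nhr-80, sbp-1 and mdt-15, limma without the block called none. In wild type the lowest p was that of acdh-11, the gene of an acyl-CoA dehydrogenase that restrains fat-7, with a log2 difference of 0.17 ± 0.08 (adjusted p = 0.934). With the block, sbp-1, the worm homologue of the SREBP transcription factors, was called higher with fluvastatin in the mutant (0.38 ± 0.12, adjusted p = 0.018, and 0.279 without the block). Its means were 430 ± 25.6 and 497 ± 50.8 normalised reads in wild type at 0 and 1 mM, beside 369 ± 29.7 and 482 ± 45.6 for the mutant (SD, n = 3). RNA levels of these genes say nothing of the activity of their proteins.

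Of 6 genes known as targets of NHR-49 in fasted worms, limma without the block called none. DESeq2, also without the block, called 1 for the drug in the mutant, beside 2.33% of all genes. In limma with the block, hacd-1, the gene of a hydroxyacyl-CoA dehydrogenase of fat breakdown, was lower with fluvastatin in both genotypes. Its means were 1363 ± 255 and 914 ± 209 normalised reads in wild type at 0 and 1 mM, beside 1175 ± 294 and 599 ± 136 for the mutant (SD, n = 3). The log2 difference of hacd-1 was -0.58 ± 0.24 in wild type and -0.96 ± 0.24 in the mutant, with limma adjusted p = 0.0434 and 0.00318 with the block and 0.727 and 0.136 without it. Without the mutant at 0 mM replicate 2, hacd-1 also passed in the mutant without a block (adjusted p = 0.0485). The members did not move one way: with the block, fmo-2 was also lower in wild type and acs-2, the gene of an acyl-CoA synthetase, was higher in the mutant.

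**Figure D5:**
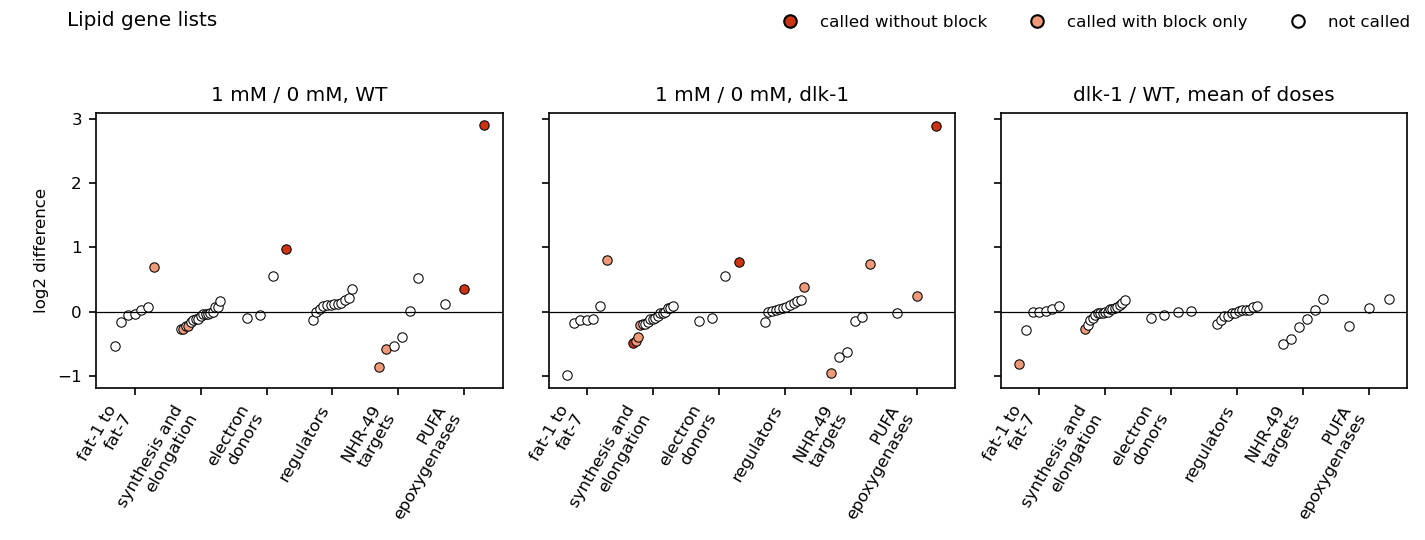
Log2 differences of the 7 desaturase genes and of the genes of 5 lists that work with them (vertical axis, 1 point per gene, sorted within each list), for the drug in each genotype and for the averaged genotype effect. Filled points passed at an adjusted p below 0.05 in limma, dark without the block and light only with it. In the genotype panel only fat-5 and elo-6 are filled.

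Polyunsaturated fatty acids are also turned over by cytochrome P450 enzymes. The list of 3 genes held the P450 genes cyp-29A3 and cyp-33E2 and the reductase gene emb-8. Of these, cyp-29A3 rose with fluvastatin, from 49 ± 8.32 to 375 ± 91.4 normalised reads in wild type and from 56.3 ± 9.81 to 424 ± 84.5 in the mutant (SD, n = 3). The log2 differences were 2.90 ± 0.24 (SE, limma adjusted p = 8.76e-05) and 2.88 ± 0.24 (9.93e-05), and only leaving out all of replicate 1 ended the calls (0.0602 and 0.0736). emb-8, the gene of the NADPH-cytochrome P450 reductase, rose by 0.36 ± 0.06 in wild type (limma adjusted p = 0.0155), a call kept in 7 of 15 leave-outs. In the mutant it rose by 0.24, which limma called with the block only (adjusted p = 0.00328, and 0.15 without it). DESeq2, fitted without the block, called 2 of the 3 genes for the drug in the mutant, beside 2.33% of all genes. The lowest p for the averaged genotype effect was that of cyp-33E2, at -0.22 ± 0.10 (adjusted p = 1.0).

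Markers of the tissues in these whole animals were read beside the desaturase genes. In limma without the block, none of the markers of intestine, epidermis, germline, sperm, muscle and neurons was called for the drug in either genotype. That fit called only 1.82% of all genes in wild type and 1.38% in the mutant, so the absence of calls says little. For the averaged genotype effect it called 0% of all genes, so no marker could be among the calls there. No marker found was at 0 in all libraries. The 7 intestine markers found, from the tissue where most of the desaturase genes are known to be expressed, summed to 22636 to 36327 normalised reads in wild type at 0 mM and 19593 to 28537 at 1 mM. In the mutant they summed to 22143 to 36447 at 0 mM and 22099 to 28894 at 1 mM. The ranges of the sum thus overlapped between the genotypes at each dose. The sum says little of low markers, since asp-1 had a mean of 11702 normalised reads over the 12 libraries and elt-2 had 177. The averaged genotype effect (log2) was -0.37 ± 0.16 (SE) for elt-2 and -0.26 for ges-1, the direction of fat-5. It was -0.05 for act-5, 0.01 for ifb-2, 0.07 for vha-6, 0.11 for asp-1 and 0.12 for elt-7. None of these was called in limma with or without the block, which called 1.04% and 0% of all genes for this effect. With the block, 1 of the 7, the aspartyl protease gene asp-1, was lower with fluvastatin in wild type (-0.46 ± 0.25, adjusted p = 0.00174) and in the mutant (-0.35, adjusted p = 0.0124). By replicate number, the intestine sum averaged 27371, 21618 and 32551 for replicates 1, 2 and 3. Replicate 2, the lowest there, was the highest in fat-5 in every group, and the part of the stage or tissue make-up of a replicate in the levels of fat-5 and fat-7 was not tested.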

How the data were processed

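RNA of 12 whole-animal libraries was read as 50 bp single reads on 1 lane with a TruSeq RNA kit that does not mark strand, per the labels' protocols. The submitters' processing notes name Bowtie and DESeq2 and give neither version nor role. The sources used here state no build or annotation. The table deposited by the authors holds 1 normalised signal per transcript model in 34873 rows, that is, reads over a size factor. Its steps matched inverse median-of-ratios factors to within 5.33e-10 over 20484 rows, and 100% of values came out as whole reads within 0.01 read. Rows were joined by sequence name into 30301 genes, each given its highest-mean row, and 29778 had a place in WBcel235 (Ensembl annotation). Per-kb levels used the longest annotated transcript, which for fat-6 was not the model of the row used.

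The 15529 genes that reached 10 in 3 or more libraries were analysed as log2(value + 1), a scale that makes changes of low genes look smaller. The reference fit of limma 3.58.1 in R 4.3.3 (trend, robust) held the 4 groups and no replicate term. Tests were two-sided with Benjamini-Hochberg adjustment over all genes and a threshold of 0.05. This fit gives every SE, and the adjusted p where no block or other tool is named. Alternatives were replicate number as a block, edgeR 4.0.16 (quasi-likelihood) and DESeq2 1.42.0 on recovered reads, other pseudocounts, no filter, TMM scaling, summed rows, only the groups compared, and leaving out each library or replicate number. Each group has replicates 1, 2 and 3 in its titles. In all 18 same-number pairs, deviations from the group means correlated (0.555 to 0.887). The median for other numbers was -0.523. Deviations within a group sum to 0, so that value follows from the same-number correlations and is no separate ground. For the same reason, a replicate 2 that stands apart in every group can by itself give part of the correlations of numbers 1 and 3. Those correlations therefore do not show on their own that numbers 1 and 3 pair samples. On the same-number correlations, with no label behind them, the numbers were treated as pairing samples.

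The members and the 11 gene lists (84 of 86 entries found) were chosen with earlier results of these data known. Named were the 7 genes, genes overlapping them, the 3 nearest profiles of each, and from each list up to 5 called genes of lowest p or, with none called, the lowest p. From the lists of tissue markers, only some of the genes given by this rule are named. The neighbours of fat-5 and fat-7, fmo-2, acs-2 and the intestine markers other than asp-1 and elt-2 were named outside this rule, after their values were seen. Comparisons that share control libraries are not independent.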

Additional observations from a re-analysis of the deposited data

How the results depend on the processing

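Of the values of the 7 genes under the other settings listed among the methods, 970 kept direction and side of the threshold, 52 changed sign and 14 passed that had not. With the replicate block, limma called 1 of the 7 genes, fat-5, in 5 of 6 comparisons (drug in each genotype, genotype at each dose and averaged, the last at a log2 of -0.82), where the fit without it called 0. edgeR with the block called 1, 2, 1, 1 and 1 there (-0.82 for fat-5 averaged). DESeq2 called 1 for the drug in the mutant, fat-7, and 1 for the averaged genotype effect, fat-5 (-0.82). Leaving out libraries gave 0 to 1 calls for the drug in the mutant, fat-7 without replicate 2. The fits of fat-5 with the block that left out libraries were added after seeing the data. Its averaged effect passed in all 15 of them, at -0.89 to -0.74, and in 0 of the 15 without the block. The block changed no other call of a member in limma. Over all genes, the numbers called for the drug in wild type and in the mutant were 282 and 214, 1091 and 980 with the block, 1069 and 947 in edgeR with it, 437 and 362 in DESeq2, and 166 and 103 with only the groups compared. The genotype called 0 at 0 mM, 0 at 1 mM and 0 averaged, 15, 42 and 162 with the block, 16, 42 and 147 in edgeR with it, and 4, 8 and 28 in DESeq2. Without replicate 1 the drug called 59 genes in wild type and 48 in the mutant, and without replicate 3 it called 47 and 43. Only the groups compared could give no value for the averaged genotype effect or the difference of drug effects.

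The changes of sign were of differences that were not called. fat-2 averaged over doses turned to 0.00298 in edgeR and 0.0055 in DESeq2, and fat-6 to -0.0019 with summed rows. With libraries left out, the drug effect ranged from -0.11 to 0.0049 for fat-2, -0.016 to 0.14 for fat-3 and -0.077 to 0.094 for fat-6 in wild type, and from -0.032 to 0.17 for fat-3 in the mutant. Its difference between genotypes ranged from -0.022 to 0.11 for fat-1, -0.10 to 0.099 for fat-3 and -0.084 to 0.27 for fat-5. The genotype effect at 0 mM ranged from -0.053 to 0.079 for fat-1, -0.0087 to 0.19 for fat-2, -0.0036 to 0.19 for fat-3, -0.029 to 0.078 for fat-4, -0.024 to 0.20 for fat-6 and -0.26 to 0.18 for fat-7. Averaged, it ranged from -0.037 to 0.060 for fat-2, -0.065 to 0.025 for fat-4 and -0.047 to 0.065 for fat-6. Among markers, it was -0.18 to 0.67 for spe-9 and -0.0086 to 0.16 for unc-15, and the drug effect in the mutant was -1.34 to 0.45 for spe-38 and -0.013 to 0.42 for egl-3. By contrast, the averaged genotype effect on fat-5 kept its sign, at -0.92 to -0.74 with and without the block. The causes were not tested. Counting error for fat-5 was at most 8.67% in a library.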
